A study of Homo sapiens with 26 samples.

Results

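Summed sucrose gradient libraries of SK-MEL-28, an established human melanoma cell line, were compared between cells kept for 72 h on salubrinal and untreated cells. Salubrinal is an inhibitor of the phosphatase complexes that remove the phosphate from the translation factor eIF2α. The members were the 24 gradient samples among the 26 samples of the series, and the other 2 samples are input RNA, 1 per treatment. For each treatment and each number in the file name, the 40S, 60S, 80S and polysome files were summed into 1 library, which gave 3 salubrinal and 3 untreated libraries. The 3 rows of nuclear ribosomal RNA were then dropped.

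Both groups were grown in the same medium with serum and received 100 µg/mL cycloheximide, which holds ribosomes on mRNA, for 12 min before lysis. Lysates ran on a 5 to 20% sucrose gradient, from which 14 fractions were taken and joined into 4 samples. The labels do not say whether the numbered replicates came from separate cultures. The p-values therefore describe library-to-library spread, which may be technical. The titles name SK-MEL-28 for every sample, whereas the cell line field carries a running number, and the titles were followed. For the untreated 40S files, the title gives replicates 1 and 2 where the file names give 2 and 1.

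Phosphorylation of eIF2α starts the integrated stress response, in which most initiation slows while the transcription factor ATF4 is made and induces genes such as DDIT3 (CHOP), MTHFD2 and SLC7A11. In pigment cells, PMEL builds the fibrils of the melanosome and MLANA takes part in its maturation. Mitochondrial ribosomes translate 13 mRNAs of the mitochondrial genome, which is transcribed as long precursors from both strands.

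The 4 files of a library had the same proportions over rows, within sampling noise, outside ribosomal RNA. The check used 117 rows in salubrinal 1 and 29 in salubrinal 2, against 373 to 1354 in the other libraries. Chi-square per degree of freedom was 0.963 to 1.04 when files were joined by file-name number, with p between 0.0778 and 0.808. Joined by title number, it was 1.33 and 1.54 for untreated 1 and 2. The sum over the 4 files was therefore the replicate, and the position in the gradient was not compared.

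Ribosomal RNA took 93.6 to 99.8% of the counts on gene rows. The analysed counts were 10359, 4781 and 73631 in salubrinal 1, 2 and 3, and 86534, 22867 and 93783 in untreated 1, 2 and 3. Salubrinal 1 and 2 were thus the shallowest libraries, and 3 counts in them were worth 398 and 1151 CPM (counts scaled to a common total over tested rows by TMM), against 32.8 to 146 CPM elsewhere. In salubrinal 2 a single row of unknown function, AC079949.1, took 27.3% of the analysed counts. It took 6.62% in salubrinal 1 and 4.99% in untreated 2.

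**Figure D1:**
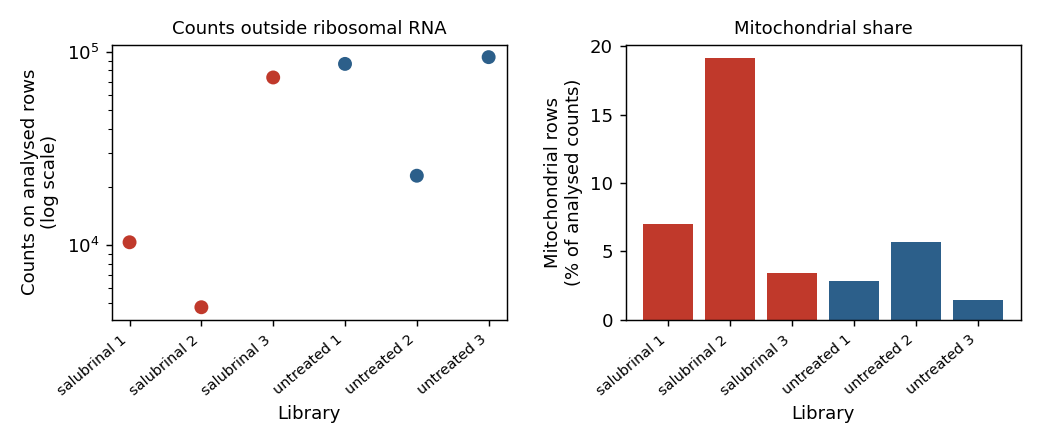
Left, counts outside ribosomal RNA per library on a log axis; right, mitochondrial rows as a percentage of those counts, 1 bar per library. Red is salubrinal and blue is untreated; salubrinal 2 has the fewest counts, 4781, and the highest mitochondrial share, 19.16%.

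Rows named for abundant mRNAs were nearly empty. GAPDH and ACTB, among the most abundant mRNAs of most cells, held 12 and 7 counts over all 6 libraries, and VIM held 23. VIM-AS1, the row on the other strand of VIM, was among the fullest rows, at 28915, 13434 and 31234 CPM with salubrinal and 21284, 20671 and 21214 CPM in untreated cells. Libraries were made with a strand-specific kit, and which strand the authors counted is not stated in the labels or notes used. A row is therefore described as a row, and the gene that overlaps it is named beside it. For GAS5, SNHG6, SNHG29, SLC24A5, SLC7A11, SRSF2, ARHGEF39, H1-10 and CIRBP-AS1 the table used gave the overlap without the strand.

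Of the melanocytic markers, PMEL held 343 counts, SOX10 36, MLANA 7, S100B 6, DCT and MITF 2 each, and TYR and TYRP1 were at 0. Marker lists of other cells held 1 count in the fibroblast list (LUM), 1 in the immune list (NKG7), 7 in the keratinocyte list (KRT10) and 0 in the endothelial and erythroid lists. Since rows of abundant mRNAs were nearly empty too, these low counts do not show that such cells were absent. The summed pigment list held 396 counts, of which 343 were on PMEL, and took 0 to 652 CPM of the analysed counts (without TMM) with salubrinal and 1050.0 to 1884 CPM in untreated cells. Fewer cells of a type and less RNA per cell cannot be told apart in bulk samples.

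Of 749 rows tested with edgeR's quasi-likelihood test, 89 passed an adjusted p of 0.05 (11.9%), 55 higher (7.34%) and 34 lower (4.54%) with salubrinal. The median log2 fold change over all tested rows was -0.06. With DESeq2 size factors the split was 45 higher and 46 lower, and with library sizes alone, which moved the median by -0.36, it was 10 higher and 32 lower. DESeq2 called 33 rows. The count fell to 39 without salubrinal 1, 48 without salubrinal 3, 54 without untreated 1 and 50 without untreated 2. It was 128 without salubrinal 2 and 134 with salubrinal 3 as the only treated library, an alternative chosen after seeing the data in which that lone library is assumed to vary like the others.

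The groups did not overlap for 199 rows (26.6%), of which 53 were higher (7.08%) and 146 lower (19.5%) with salubrinal. Of those 146 rows, 97 had 0 counts in salubrinal 2, the shallowest library, so that a value below the untreated range was reached with no count at all. Among the 34 rows past the threshold in the lower direction, 16 had 0 counts in salubrinal 2 and 9 in salubrinal 1. In salubrinal 3, 0 of the 34 had no count.

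**Figure D2:**
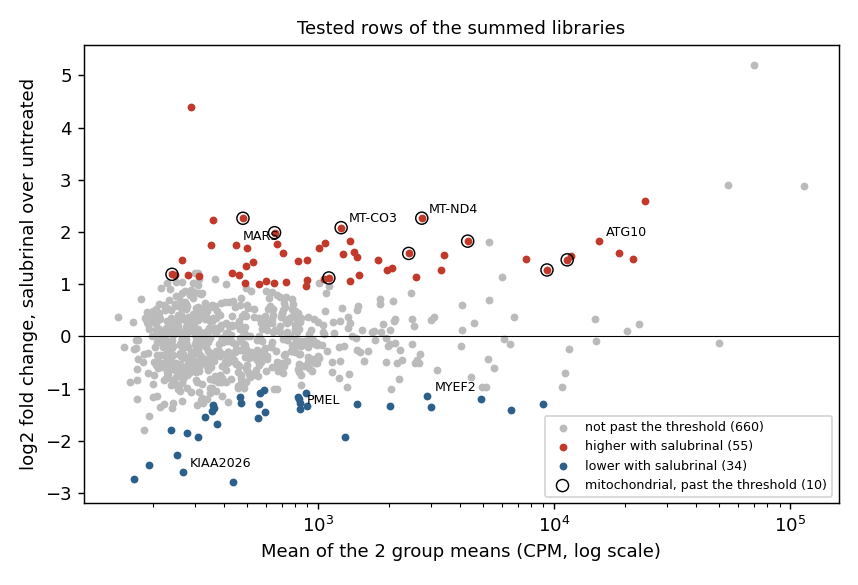
Each point is 1 of the 749 tested rows, with the mean level of both groups in CPM on a log axis and the fitted log2 fold change, salubrinal over untreated. Red and blue points passed the threshold and black rings mark the 10 mitochondrial rows among them, all above 0.

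Most tested rows of the mitochondrial respiratory chain passed in the higher direction. Of the 10 tested of 13 mRNA rows, 9 did, beside 7.34% of all tested rows. MT-ND6, the fullest, did not pass, and MT-ND4L, MT-ATP6 and MT-ATP8 were not tested. MT-ND4 and MT-CO3 rose by 2.26 ± 0.43 and 2.08 ± 0.35 on the log2 scale (± SE here and below), and both rRNA rows missed the threshold. With DESeq2, MT-CO1, MT-CYB and MT-ND5 missed the threshold too (adjusted p = 0.365, 0.365 and 0.281). MT-ND1, MT-ND2, MT-ND3, MT-ND4, MT-CO2 and MT-CO3 passed with DESeq2. Which strand was counted is not stated, so these rows may hold RNA of the opposite strand. Subunit names below are row names, and a higher row is not shown to be a higher mRNA.

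Complex I takes electrons from NADH into the respiratory chain, and 5 of its 6 tested rows passed. MT-ND4, a membrane subunit of the proton-pumping arm, was at 3847, 8828 and 1490.5 CPM with salubrinal and at 716, 1165 and 448 CPM in untreated cells. The groups did not overlap, and the highest value was in salubrinal 2 (edgeR adjusted p = 1.99e-05). With salubrinal 3 as the only treated library the log2 fold change was 1.15 (adjusted p = 0.00221). Without untreated 1 or untreated 3 the adjusted p was 0.321 and 0.362. MT-ND1 and MT-ND3, also membrane subunits, rose by 1.82 ± 0.39 and 1.99 ± 0.46, and their groups did not overlap. MT-ND1 missed the threshold without untreated 2 (adjusted p = 0.0526).

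MT-ND2 rose by 1.59 ± 0.38 with groups apart, and its adjusted p was 0.148 without salubrinal 1 and 0.118 without salubrinal 2. MT-ND5 rose by 1.47 ± 0.46 with overlapping groups. Its adjusted p was above the threshold without any 1 of the 6 libraries (0.0821 to 0.66), and with salubrinal 3 alone the log2 fold change was 0.17. MT-ND6, the subunit encoded on the other strand from the rest, was the fullest mitochondrial row with 2944 counts. It stood at 34884, 243725 and 8959 CPM with salubrinal and 7111, 27658 and 3751 CPM in untreated cells, so both shallow libraries numbered 2 were far above their groups. Its log2 fold change of 2.90 ± 2.06 missed the threshold (adjusted p = 0.437). It passed without salubrinal 1 (3.05, adjusted p = 0.0131), salubrinal 3 (3.91, adjusted p = 0.000244) or untreated 2 (3.88, adjusted p = 0.00339). It was 0.70 without salubrinal 2 and -0.45 with salubrinal 3 alone.

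MT-CYB, the mitochondrial subunit of complex III, rose by 1.27 ± 0.45 (adjusted p = 0.0412) with overlapping groups. Salubrinal 3, at 4389.5 CPM, lay below untreated 1 and 2 at 5473 and 7958 CPM. The adjusted p was 0.39 and 0.735 without salubrinal 1 and 2, and 0.546, 0.24 and 0.384 without untreated 1, 2 and 3. With salubrinal 3 alone the log2 fold change was -0.23.

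All 3 rows of complex IV, which passes electrons to oxygen, rose. MT-CO3 was at 1857, 2687 and 1589 CPM with salubrinal and 498, 631 and 252 CPM in untreated cells. The groups lay wide apart (adjusted p = 1.24e-06), the row passed without each library in turn, and with salubrinal 3 alone the log2 fold change was 1.97. MT-CO2, the subunit that receives electrons from cytochrome c, was at 1061, 768 and 622 CPM against 133, 146 and 153 CPM and rose by 2.26 ± 0.44. It was tested in 5 of the 6 settings that leave out a library and passed in each. MT-CO1, the catalytic subunit, rose by 1.12 ± 0.34 with groups apart. Its adjusted p was 0.0607 without salubrinal 1, 0.23 without salubrinal 3, 0.0951 without untreated 2 and 0.0777 without untreated 3.

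MT-ATP6 and MT-ATP8 of complex V held 64 counts in all and were not tested. MT-RNR2, the large mitochondrial rRNA, had groups apart and a log2 fold change of 1.14 ± 0.42 (adjusted p = 0.052); summed by title number it passed (1.29, adjusted p = 0.0144). For MT-RNR1, the small rRNA, the value was 0.57 ± 0.48 (adjusted p = 0.525). It was 2.21 without salubrinal 3 (adjusted p = 0.00505) and -0.23 with salubrinal 3 alone.

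Of 6 tested mitochondrial tRNA rows, 1 passed, MT-TC in the higher direction, where 7.34% of all tested rows did. A single pass among so few rows cannot be told from that share. All 6 had a log2 fold change above 0, with a median of 0.75 beside -0.06 over all tested rows. MT-TC held 1, 0 and 38 counts with salubrinal and 16, 5 and 23 in untreated cells. Its log2 fold change of 1.19 ± 0.42 (adjusted p = 0.0396) thus rested on salubrinal 3. The adjusted p was 0.0724 without salubrinal 1 and 0.111 without untreated 2. Over all libraries, the 8 tRNA rows of the strand that carries MT-ND6 held 530 counts and the 14 tRNA rows of the other strand 40. MT-ND6 held 2944 counts, beside 4598 on the 12 mRNA rows of the other strand. Whether the mitochondrial rows hold RNA of the opposite strand was not tested.

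**Figure D3:**
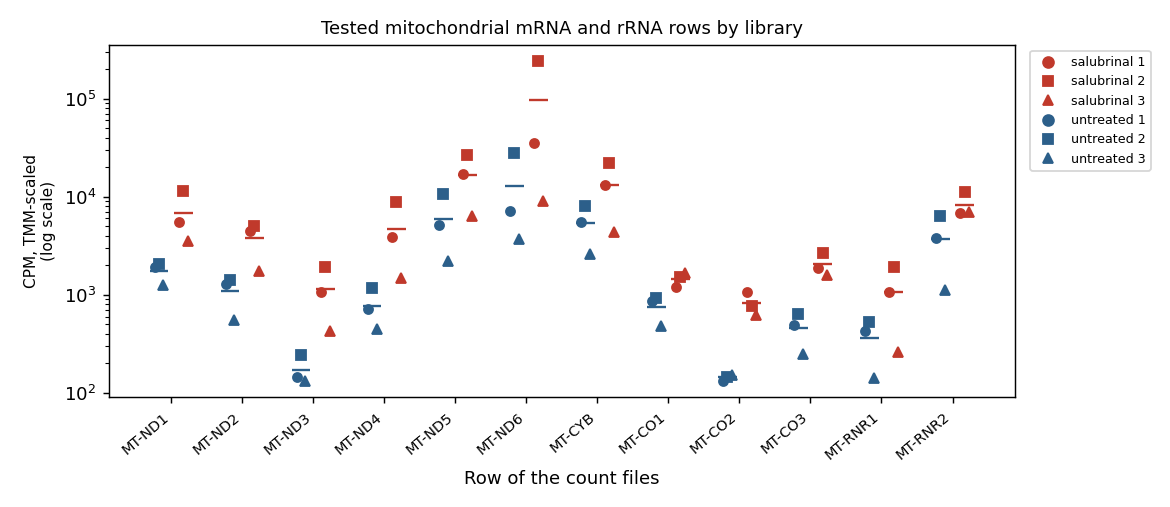
Levels of the tested mitochondrial mRNA and rRNA rows in CPM on a log axis, with salubrinal in red and untreated in blue; symbols give the library number and lines the group mean. MT-CO2 and MT-CO3 show 3 salubrinal libraries close together above the untreated ones, while MT-ND6 is led by salubrinal 2.

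Together the 37 mitochondrial rows made up 7.04, 19.16 and 3.4% of analysed counts with salubrinal and 2.86, 5.71 and 1.41% in untreated cells. Salubrinal 3 lay below untreated 2, so the groups overlapped. The difference of the means was 6.54 percentage points (9.86% ± 8.25 against 3.33% ± 2.19, SD, n = 3; exact two-sided permutation p = 0.2, where 0.1 is the smallest possible). Without salubrinal 2 it was 1.89 points, and as a share of all gene-row counts with ribosomal RNA kept it was -0.0045 points. Within each group the share was highest in the library with the fewest counts, and the part of depth in the difference was not tested. In the input, with 1 library per treatment and no test, MT-ND1 had a log2 ratio of -0.43, MT-CO1 of -0.37, MT-ND5 of -1.28 and MT-RNR2 of 0.04. MT-ND4 had 15 and 8 counts, a log2 ratio of 0.15. MT-CO2, MT-CO3 and MT-ND3 are listed at 0 there.

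The rows named for genes of the integrated stress response were too empty to test. All 22 held 95 counts together and ATF4 held 1. Of 9 rows that overlap one of these genes, 3 were tested and all 3 passed in the higher direction, where 7.34% of all tested rows did, with a median log2 fold change of 1.60 beside -0.06 over all tested rows. They overlap DDIT3, MTHFD2 and SLC7A11, on a list chosen with earlier results of these data known. With DESeq2 each missed the threshold, at an adjusted p of 0.0876 for MARS, 0.176 for SLC4A5 and 0.376 for SLC7A11-AS1.

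MARS, the row of the cytosolic methionyl-tRNA synthetase, overlaps DDIT3, the transcription factor CHOP, on the other strand. It was at 531, 768 and 786 CPM with salubrinal and 194, 146 and 262 CPM in untreated cells, from 4, 2 and 48 against 16, 3 and 24 counts. The groups did not overlap (log2 fold change 1.75 ± 0.42, adjusted p = 0.000888). The row was tested in 3 of the 6 settings that leave out a library and passed in each. DDIT3 had 418 input counts with salubrinal and 57 without, a log2 ratio of 2.12. The gene the row is named for, MARS1 in RefSeq, had 3444 and 829, a log2 ratio of 1.33, so both genes had higher input counts.

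SLC4A5, a bicarbonate transporter row, overlaps MTHFD2, a folate enzyme of mitochondria, on the other strand. It was at 928, 384 and 1687 CPM with salubrinal and 607, 243 and 426 CPM in untreated cells. The groups overlapped, since salubrinal 2 (1 count) lay below untreated 1 and 3. The log2 fold change was 1.60 ± 0.32 (adjusted p = 4.85e-05), and 0.88 without salubrinal 3 (adjusted p = 0.456). MTHFD2 had 3150 and 620 input counts, a log2 ratio of 1.62, and SLC4A5 itself had 1 and 2.

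SLC7A11-AS1 overlaps SLC7A11, the cystine transporter, and, over a longer stretch, LINC00616. Its levels were 928, 1151 and 1425 CPM against 570.3, 631 and 656 CPM, with no overlap. The log2 fold change was 1.08 ± 0.33 (adjusted p = 0.0171). It missed the threshold without salubrinal 1 (adjusted p = 0.0509), salubrinal 3 (0.429), untreated 1 (0.0796) and untreated 2 (0.103). The input log2 ratio of SLC7A11 was 0.86.

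The pigment list named 20 rows and was chosen with earlier results of these data known, and pigment genes outside it are not covered here. The 3 tested rows on or over its genes were PMEL itself and the rows that overlap MLANA and SLC24A5. All 3 passed in the lower direction, where 4.54% of all tested rows did. PMEL is the row's own gene, MLANA lies on the other strand of its row, and the strand of SLC24A5 is unknown. Which strand was counted is not stated, so the rows are not shown to hold RNA of these genes. No overlapping gene was found for PMEL, and DGKA, CDK2 and RAB5B lie within 20 kb of it. PMEL was at 133, 0 and 688 CPM with salubrinal, from 1, 0 and 42 counts. In untreated cells it was at 1662, 970.5 and 1564 CPM, from 137, 20 and 143 counts. All 3 treated libraries lay below all untreated ones (log2 fold change -1.40 ± 0.38, adjusted p = 0.00553). At the untreated mean level salubrinal 3 would hold 85.4 counts, and salubrinal 1 and 2 would hold 10.5 and 3.64. The adjusted p was 0.112 without salubrinal 1 (log2 fold change -1.22), 0.294 with DESeq2 and 0.0167 with salubrinal 3 alone. In the input PMEL had 13535 counts with salubrinal and 16793 without, a log2 ratio of -1.04.

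KIAA2026, which overlaps MLANA on the other strand, held 0, 0 and 6 counts with salubrinal and 43, 9 and 50 in untreated cells. Its log2 fold change was -2.60 ± 0.59 (adjusted p = 0.000506), and -2.36 with salubrinal 3 alone. Without salubrinal 3, which leaves no count with salubrinal, the adjusted p was 0.0716. MYEF2, which overlaps SLC24A5, a cation exchanger of melanosomes, was at 2255, 1151 and 1785 CPM against 4284, 4658 and 3281 CPM. The groups did not overlap and no library was at 0 (log2 fold change -1.14 ± 0.40, adjusted p = 0.0396). The adjusted p was 0.202 without salubrinal 1, 0.115 without salubrinal 3, 0.0796 without untreated 1 and 0.254 without untreated 2. SLC24A5 had an input log2 ratio of -0.43.

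**Figure D4:**
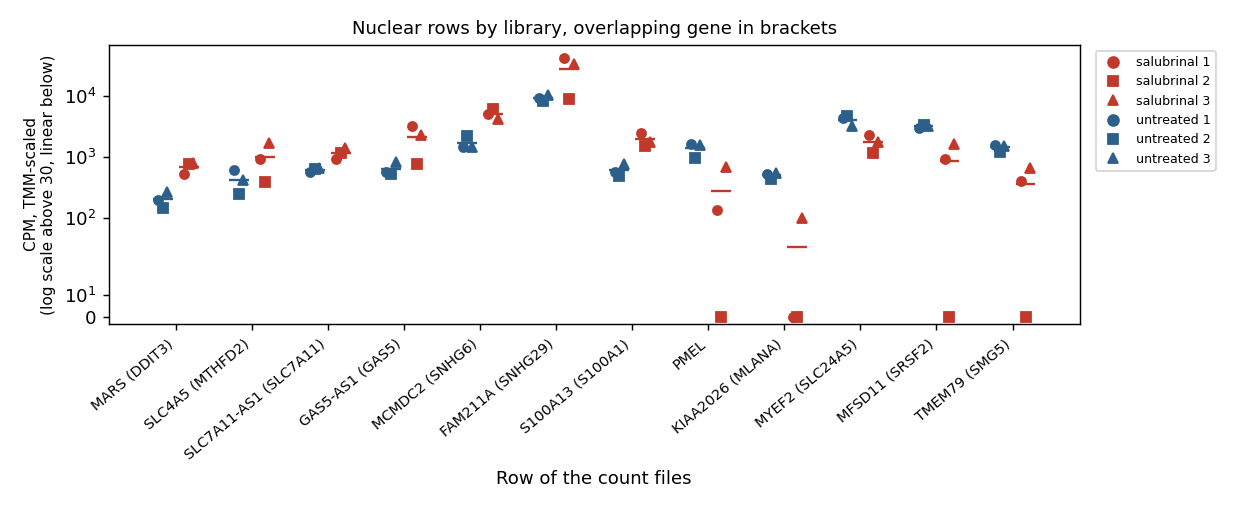
Levels of 12 nuclear rows in CPM by library, with the overlapping gene in brackets; the axis is linear below 30 and logarithmic above. Red is salubrinal, blue untreated, and lines are group means; the 7 rows on the left are higher on average with salubrinal, and of the 5 on the right all but MYEF2 have salubrinal 2 at 0.

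Host genes of small nucleolar RNAs carry these RNAs in their introns. Of 4 tested rows that overlap such a host, 3 passed in the higher direction, beside 7.34% of all tested rows (median log2 fold change 1.58). The list was chosen with earlier results of these data known, so that share is no test of it. With DESeq2, GAS5-AS1 and MCMDC2 passed (adjusted p = 0.00994 and 0.00649) and FAM211A did not (0.163). GAS5-AS1, over GAS5, was at 3183, 768 and 2326 CPM against 558, 534 and 831 CPM. Only salubrinal 2 reached into the untreated range, and the row passed without each library in turn (1.82 ± 0.35, adjusted p = 1.99e-05). FAM211A, over SNHG29, rose by 1.60 ± 0.47 with salubrinal 2 inside the untreated range. MCMDC2, over SNHG6, rose by 1.57 ± 0.38 with groups apart. Both missed the threshold without salubrinal 1 (adjusted p = 0.443 and 0.0807) and without untreated 2 (adjusted p = 0.347 and 0.0638). EPB41L4A, over EPB41L4A-AS1, was at -0.69 and missed the threshold. Of rows named for the hosts themselves only SNHG7 was tested, at -0.17.

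Of 91 rows named for cytosolic ribosomal proteins, only RPL10 was tested (-0.32, not past the threshold). CCDC84, which overlaps RPS25 of the small subunit, held 11, 0 and 188 counts with salubrinal and 66, 8 and 61 in untreated cells. It rose by 1.78 ± 0.33 (edgeR adjusted p = 1.36e-05) with salubrinal 2 at 0, and its log2 fold change was 0.81 without salubrinal 3 (adjusted p = 0.44). The groups overlapped, and with DESeq2 the row missed the threshold (adjusted p = 0.669). ATG10, an autophagy enzyme row, lies within 20 kb of RPS23. It was at 32762, 11515 and 28122 CPM against 6735, 6405 and 7425 CPM, with groups apart (1.83 ± 0.47, adjusted p = 0.0027). SH3D19, within 20 kb of RPS3A, rose by 1.48 ± 0.44 with salubrinal 2 inside the untreated range, and its longest overlap is with PRSS48. Of the other tested rows within 20 kb of a ribosomal protein gene, LAMA5 (near RPS21) was lower, and RNF207 (RPL22, -0.50), PXN-AS1 (RPLP0, 0.24) and MIR1539 (RPL17, 1.05) did not pass. Without salubrinal 1 the adjusted p of ATG10 and SH3D19 was 0.247 and 0.201, and without untreated 2 it was 0.233 and 0.342.

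Messenger RNAs of ribosomal proteins typically start with a C and a run of pyrimidines, the terminal oligopyrimidine motif. The 30 bases around the RefSeq start (15 before, 15 after, GRCh38.p14) are shown for some of the genes named beside higher rows and for 2 pigment genes, to show which begin this way. Capitals mark a C at the start followed by at least 4 C or T.
RPS25, chr11:119018329-119018358, minus strand: tctgagcagcgcttcCTTTTTgtccgacat
RPS23, chr5:82278340-82278369, minus strand: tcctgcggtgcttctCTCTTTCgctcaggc
RPS3A, chr4:151099613-151099642, plus strand: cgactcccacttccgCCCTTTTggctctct
MTHFD2, chr2:74198600-74198629, plus strand: cgcgcgcgcgcttccCTCCCggcgcagtca
DDIT3, chr12:57520500-57520529, minus strand: ccaggcgctcccgaggtcagagacttaagt
GAS5, chr1:173869031-173869060, minus strand: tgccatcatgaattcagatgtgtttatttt
SNHG29, chr17:16438972-16439001, plus strand: cccctccttttgtgaggattgggatattcc
S100A1, chr1:153628419-153628448, plus strand: acacacagctccagcagccacatttgcaac
MLANA, chr9:5890874-5890903, plus strand: agccagagaagcagtcttcatacacgcggc
SLC24A5, chr15:48120975-48121004, plus strand: cacatgatccagtttaatcctcctcttctc
The motif is present at the starts of RPS25, RPS23, RPS3A and MTHFD2, and 4.07% of 35116 RefSeq promoters have it. RPS25, RPS23 and RPS3A are ribosomal protein genes, for which the motif is typical, and their starts are no evidence about the rows. The other 6 printed starts do not have these letters. In the SNHG29 window a run of C and T lies shortly before the printed start. Whether the printed starts are those used in these cells was not tested, so these genes, GAS5 and SNHG29 among them, are not shown to lack the motif. In the 250 bases before the start, on both strands, TGATGNAA, the letters of the ATF4 and CHOP composite site, was absent from DDIT3 and MTHFD2 and present in 3.14% of all promoters. CATGTG, an E-box bound by MITF, occurred once before SLC24A5, not before MLANA, and in 9.42% of all promoters. A match is a description of letters and not a site.

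Other rows were higher with groups apart, and all but HNRNPU-AS1 had a matched symbol. S100A13, a calcium-binding protein row that overlaps S100A1, was at 2520.2, 1535 and 1769 CPM against 570.3, 485 and 776 CPM. It rose by 1.58 ± 0.35 (adjusted p = 0.000218) and passed without each library in turn. S100A1 had 477 and 164 input counts, a log2 ratio of 0.81, and S100A13 itself 362 and 114, a log2 ratio of 0.93. MTBP, near MRPL13 of the mitochondrial ribosome, rose by 1.42 ± 0.42. AGBL5, over OST4 of the oligosaccharyltransferase, rose by 1.27 ± 0.37, while OST4 had an input log2 ratio of -0.11 and AGBL5 itself of 0.13. TAF5, over the ATP synthase subunit gene ATP5MK, rose by 1.18 ± 0.36. HNRNPU-AS1, for which no overlapping gene could be looked up, rose by 1.15 ± 0.37. Without salubrinal 1 the adjusted p of MTBP, AGBL5, TAF5 and HNRNPU-AS1 was 0.0565, 0.361, 0.184 and 0.331. Without untreated 2 it was 0.0579, 0.271, 0.22 and 0.321, and MTBP was at 0.136 without salubrinal 3.

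Among rows with no matched symbol, 3 stood out, by rule or as the largest change. RP11-495P10.9 held 4, 1 and 46 counts with salubrinal and 3, 0 and 3 in untreated cells, a log2 fold change of 4.40 ± 0.52 (adjusted p = 1.21e-14). RP11-290D2.6 was at 59289.9, 23029 and 42388 CPM against 6711, 6502 and 7545 CPM (2.59 ± 0.48). KB-1208A12.3 rose by 1.48 ± 0.47, and both rows had groups apart. Their adjusted p was 0.0724 and 0.444 without salubrinal 1, and 0.0646 and 0.408 without untreated 2.

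The rows that fell held few counts in salubrinal 1 and 2. CIRBP, the cold-inducible RNA-binding protein, which overlaps CIRBP-AS1, held 0, 0 and 3 counts with salubrinal and 19, 8 and 30 in untreated cells. Its log2 fold change was -2.73 ± 0.72 (adjusted p = 0.00372). MFSD11 overlaps SRSF2, a splicing factor, and over a longer stretch LINC02080. It was at 928, 0 and 1622 CPM against 3022, 3299.6 and 3226 CPM (-1.34 ± 0.39, adjusted p = 0.0117). SRSF2 had an input log2 ratio of -0.30. TMEM79 overlaps SMG5, a factor of nonsense-mediated decay, and was at 398, 0 and 672 CPM against 1578, 1213 and 1520.0 CPM (-1.33 ± 0.38, adjusted p = 0.0106). SMG5 had an input log2 ratio of -0.07. PHYKPL, over HNRNPAB, fell by 1.21 on the log2 scale, while HNRNPAB had an input log2 ratio of 0.15 and PHYKPL itself of 0.43 (141 and 63 counts). The adjusted p of MFSD11, TMEM79 and PHYKPL was 0.195, 0.0968 and 0.0666 without salubrinal 1. Without untreated 2, MFSD11 and PHYKPL were both at 0.103, and PHYKPL was at 0.425 without salubrinal 3 and 0.0798 without untreated 1.

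Further rows lower with groups apart were CCDC107 over ARHGEF39 (-1.80 ± 0.55), C17orf104 (-1.54 ± 0.52) and DAK over the lysosomal reductase gene CYB561A3 (-1.45 ± 0.39). B3GAT2, over SMAP1 and a longer uncharacterised locus, was at -1.44 ± 0.50. H1FX-AS1 over the linker histone gene H1-10 was at -1.31 ± 0.43, and SLC7A6, an amino acid transporter row over SLC7A6OS, at -1.27 ± 0.38. LAMA5, a laminin chain row over LAMA5-AS1, was at -1.02 ± 0.37. Each missed the threshold without salubrinal 1, with adjusted p of 0.0553 (DAK) to 0.27 (LAMA5). Without untreated 2 the adjusted p was 0.0949 for C17orf104, 0.0641 for B3GAT2 and SLC7A6, 0.0885 for H1FX-AS1 and 0.0943 for LAMA5. Without salubrinal 3 it was 0.564 for C17orf104, 0.0944 for DAK and 0.267 for B3GAT2. For LAMA5 it was 0.111 without untreated 1 and 0.21 without untreated 3.

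LIPE-AS1, over LIPE, and SGOL1-AS1, over SGO1, were lower with overlapping groups (-1.29 ± 0.42 and -1.84 ± 0.58). Their adjusted p was 0.0655 and 0.0734 without salubrinal 1, and 0.194 and 0.105 without untreated 2. LIPE-AS1 was at -0.04 without salubrinal 3 (adjusted p = 0.961). RP11-35N6.6 and RP11-597D13.9, with no matched symbol, were at -2.79 ± 0.57 and -1.93 ± 0.51 with groups apart. RP11-35N6.6 was at -1.44 without salubrinal 3 (adjusted p = 0.377). The 44 other rows past the threshold lay between 0.96 and 2.23 in the higher direction (28 rows) and between -2.47 and -1.08 in the lower (16 rows).

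The remaining lists gave few tested rows and no pass except those named. Lineage transcription factor rows held 60 counts with none tested, and LEF1-AS1, over LEF1, was at 0.86 (adjusted p = 0.169). Rows of the undifferentiated melanoma state held 13 counts. Single tested rows of translation factors (EIF3I, -0.36), glycolysis (ENO3, -0.34), cytoskeleton (TUBB6, -0.51), iron and lysosome genes (FTH1, -0.52) and splicing factors (SRSF9, -0.46) did not pass. Rows over translation factors (CCDC73 and P2RY11) and over cytoskeleton genes (CAPN12, FAM166A and VIM-AS1) did not pass either. Of 7 tested small RNA rows 0 passed, and of 2 tested histone rows only H1FX-AS1 did. Among 52 tested rows with antisense names 3 were higher and 3 lower, beside 7.34% and 4.54% of all tested rows, with a median of 0.01. Of 29 tested rows that overlap an antisense-named gene, 1 was higher (SH3D19) and 2 lower (CIRBP and LAMA5).

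Several of the fullest rows did not pass. RP5-940J5.9 was at -0.12 ± 0.44 and RP11-124N14.3 at 0.11 ± 0.46. VIM-AS1, at 0.23 ± 0.46, passed without salubrinal 2 (0.47, adjusted p = 0.00562) and with salubrinal 3 alone (0.60, adjusted p = 0.00162). C5orf45, over SQSTM1, was at -0.08 ± 0.46, BEST1, over FTH1, at 0.34 ± 0.46 and ST6GALNAC2 at -0.24 ± 0.45. AC079949.1 was at 90991, 501651 and 12088 CPM against 12948, 55316 and 14095 CPM, led in both groups by the library numbered 2 (2.87 ± 2.03, adjusted p = 0.434). It passed without salubrinal 1 (2.97, adjusted p = 0.0242), salubrinal 3 (3.89, adjusted p = 0.000167) or untreated 2 (3.64, adjusted p = 0.00703), and was at 0.82 without salubrinal 2.

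The input libraries allow a separate look at the genes that overlap these rows, with 1 library per treatment and no test. Among overlapping genes with at least 200 input counts, 6 of 7 were higher in the salubrinal input where the gradient row had passed in the higher direction (85.7%). Where the row had passed in the lower direction, 2 of 8 were higher (25%), and where it had not passed, 89 of 183 (48.6%). The median input log2 ratios were 0.81, -0.29 and -0.01. With library sizes alone for the input the counts were 7 of 7, 6 of 8 and 180 of 183. For the genes the rows are named for, 6 of 7, 7 of 9 and 45 of 113 were higher in the salubrinal input.

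**Figure D5:**
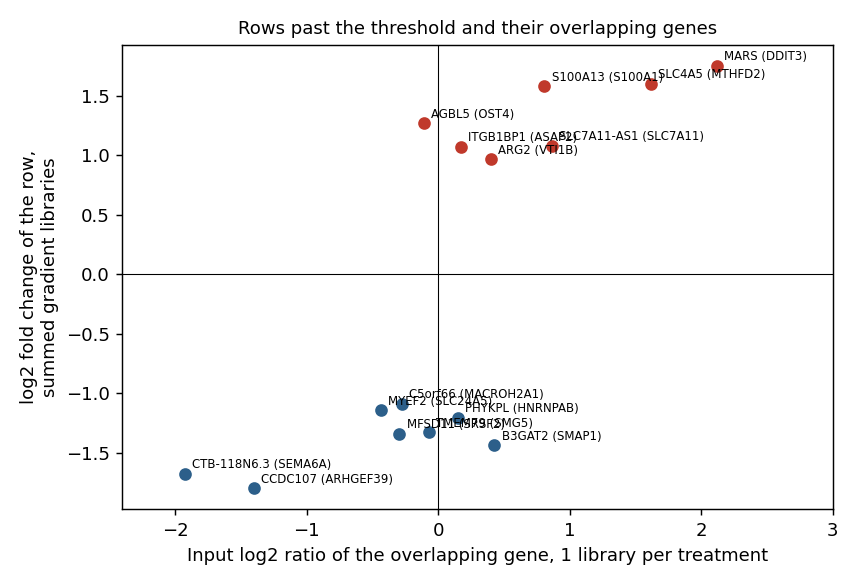
The 15 rows past the threshold whose overlapping gene had at least 200 input counts. The horizontal axis is that gene's input log2 ratio and the vertical axis the row's log2 fold change in the summed gradient libraries; MARS over DDIT3 and SLC4A5 over MTHFD2 are highest on both, and OST4, HNRNPAB and SMAP1 lie on opposite sides of 0 from their rows.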

How the data were processed

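The authors deposited read counts per gene, not normalized, for each gradient sample. The submitters' processing notes list HTSeq 0.5.3p3, SAMtools 0.1.19.24, STAR, DESeq and FastQC 0.11.5 and the build hg19; the strand setting and the roles are not given in the sources used. Unassigned reads made up 94.2 to 95.3% of all counts and were left out. The 6 summed libraries were tested in R 4.3.3 with edgeR 4.0.16, using its expression filter, TMM factors, a robust quasi-likelihood fit and an adjusted p threshold of 0.05 (Benjamini-Hochberg). SE was back-calculated from the log2 fold change and its p through a normal deviate. On simulated libraries of 749 genes, recovery was 53.3, 98.6 and 99.0% at log2 changes of 1, 2 and 3, and 1.75% of unchanged genes were called. The simulated counts were drawn independently for each row around a common mean, with the fitted dispersions. Shifts in composition shared by many rows of a library were not simulated. The rates therefore describe the simulated libraries and not the real ones.

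Overlapping genes came from RefSeq tables of GRCh38.p14, used for names, relative position and printed starts; 33197 of 56635 rows matched, and 388 of 749 tested rows. A gene known to lie on the other strand was preferred, then one of unknown strand, then the longest overlap. The input ratio used TMM and a prior count of 2. Input rows carry mouse-style symbols, matched by their letters.

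Named rows were MT-ND4, MT-CO3 and PMEL, the 12 highest and 12 lowest rows past the threshold with a matched symbol and groups apart, every tested mitochondrial mRNA and rRNA row, the 10 fullest rows, and list members past the threshold; RP11-495P10.9, RP11-35N6.6 and RP11-597D13.9 were chosen after their values were seen. The members and lists were chosen with earlier results of these data known.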

Additional observations from a re-analysis of the deposited data

How the results depend on the processing

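Of the 749 rows tested in the full comparison 89 passed, 55 higher and 34 lower. The total, higher and lower counts were 42, 10 and 32 with library sizes alone, 33, 20 and 13 with DESeq2, and 52, 33 and 19 with ribosomal RNA rows kept. Thinned to the smallest library, which left 60 rows to test, they were 22, 9 and 13. With no filter on low rows they were 3, 3 and 0 among 10221 rows, with 530 at an unadjusted p under 0.05 in edgeR. With salubrinal 3 as the only treated library they were 134, 89 and 45. Leaving out 1 library gave totals of 39 to 128, higher counts of 31 to 76 and lower counts of 8 to 52; the number of rows tested also changed, from 371 to 1178. DESeq2 size factors, the filter of 20 counts in 3 libraries, dropping mitochondrial and small RNA rows, and summing by title number kept each of the 3 counts within 1.5 times.

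Whether the numbers in the file names pair the libraries is not settled by these data. Deviations from the group means correlated at 0.03, 0.19 and 0.28 for numbers 1, 2 and 3. Between unlike numbers the correlations ran from -0.28 to 0.11. With the number as a replicate block, 48 rows passed, 34 higher and 14 lower, of which 44 were among the 89.

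The difference in mitochondrial share, 6.54 points, was -0.0045 with ribosomal RNA kept and 1.89 to 9.77 with 1 library left out. The difference in input direction, 60.7 points, was 25 with library sizes alone.

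Of 45 named rows past the threshold, 30 missed it without salubrinal 1 and 26 without untreated 2. Direction turned without salubrinal 1 and 2 for MT-RNR1 (-0.23), MT-CYB (-0.23), MT-ND6 (-0.45), AC079949.1 (-1.13), RP5-940J5.9 (0.16), C5orf45 (0.40) and ST6GALNAC2 (0.14). It turned with library sizes alone for VIM-AS1 (-0.23), RP11-124N14.3 (-0.36) and BEST1 (-0.18), with no filter for VIM-AS1 (-0.036) and RP11-124N14.3 (-0.16), with DESeq2 for RP11-124N14.3 (-0.092) and thinned for RP11-124N14.3 (-0.039). With 1 library left out it turned for RP5-940J5.9 (-0.49 to 0.20), RP11-124N14.3 (-0.070 to 0.30), C5orf45 (-0.20 to 0.18) and ST6GALNAC2 (-0.44 to 0.021). The causes were not tested. Depth limits salubrinal 1 and 2 most, where 1 count is worth 133 and 384 CPM.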
